A study of Mus musculus with 18 samples.

Results

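Macrophages that had seen either (+)-JQ1 or IL-10, and no bacterial stimulus, were set side by side by ATAC-seq, with 3 libraries for each treatment. The members were chosen by their labels alone, as the libraries of unstimulated cells treated with (+)-JQ1 and those of unstimulated cells treated with IL-10, and they are 6 of the 18 libraries of the series. All cells were bone marrow-derived macrophages (BMDMs) of Il10-/- mice on a C57BL/6J background, grown in L929-conditioned medium from the marrow of 3 male mice of 12 weeks of age, so no cell could make its own IL-10. Cells received 500 nM (+)-JQ1 or 10 ng/mL IL-10 for 12 hours, were then left for 4 more hours with PBS in place of lipopolysaccharide (LPS), and were collected at 16 hours. The series describes the samples of the conditions as matched, but no source used here ties a replicate number to a mouse. The other groups used below were untreated cells and cells that received 50 ng/mL LPS for 4 hours, alone or after (+)-JQ1 or IL-10. Whether the cells given IL-10 also received the solvent of (+)-JQ1 is not given in the sources used here, so (+)-JQ1 and its solvent cannot be told apart in this comparison. In bulk libraries fewer cells with an open region and a less open region in each cell cannot be told apart.

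BET proteins, such as BRD2 and BRD3, read acetylated lysines on histones through their bromodomains and bring the elongation factor P-TEFb and other regulators to enhancers and promoters. (+)-JQ1 fills the acetyl-lysine pocket of those bromodomains and displaces the proteins from chromatin. IL-10 is an anti-inflammatory cytokine that binds the receptor chains IL10RA and IL10RB, activates the kinases JAK1 and TYK2, and acts on chromatin mainly through the transcription factor STAT3, which raises its own inhibitor SOCS3 and several repressors of inflammatory genes. In ATAC-seq a transposase cuts DNA that is not wrapped up, and the reads counted in a region measure its accessibility.

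Total counts in peaks were between 15928211 and 20206975 with (+)-JQ1 and between 20541878 and 21847467 with IL-10. The lowest correlation of log2 CPM between 2 libraries of a group was 0.944 with (+)-JQ1 and 0.958 with IL-10, against 0.923 among the untreated libraries, and any 2 of the 6 libraries had different counts at 187157 or more peaks. Values per library below are counts divided by library size and TMM factor and brought back to the mean library, called normalized counts. The promoter peak of Il10 (chr1:132915317-132916027, build mm9) held 119, 117 and 105 normalized counts with (+)-JQ1 and 128, 95.9 and 111 with IL-10. The groups overlapped, and accessibility 750 bp from a start site is no check of the knockout. All 9 macrophage markers (Cd68, Csf1r, Emr1, Itgam, Sfpi1 (the gene of PU.1), Fcgr1, Mertk, Lyz2 and Cd14) had a promoter peak. Their summed strongest promoter peaks ranged from 4832 to 5158 normalized counts with (+)-JQ1 and from 4086 to 4181 with IL-10, with Cd14 and Lyz2 called higher with (+)-JQ1. None of the 4 T cell markers (Cd3e, Cd3d, Cd4 and Cd8a) had a promoter peak. All 4 dendritic cell, all 3 erythroid and all 3 megakaryocyte markers and 3 of 4 B cell markers had one, so having a promoter peak does not tell cell types apart here. Of the 5 neutrophil markers (S100a8, S100a9, Mpo, Elane and Camp), 4 had one, and their sum ranged from 850 to 916 with (+)-JQ1 and from 1020 to 1108 with IL-10, while none of them passed the test alone. The sums for B cell, dendritic cell, NK cell, mast cell, fibroblast, erythroid and megakaryocyte markers overlapped between the groups. The part of these differences in the results below was not tested.

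Regions that separated the treatments strongly are shown by their middle 200 bases, since the results turn on them. They are 2 distal peaks that fell and 3 that rose under (+)-JQ1 relative to IL-10, each among those with the largest change in its direction at a mean of at least 50 normalized counts, read from the plus strand of mm9. The AP-1, STAT, IRF and PU.1 motifs defined below had no match in any of these windows, so no base is in capitals. This says only that the letters of these motifs are not in them. Other motifs were not marked, and the C/EBP motif defined below does occur in the Il4ra and Rnf144a windows.
Past the 3′ end of Il4ra, lower, chr7:132727108-132727307: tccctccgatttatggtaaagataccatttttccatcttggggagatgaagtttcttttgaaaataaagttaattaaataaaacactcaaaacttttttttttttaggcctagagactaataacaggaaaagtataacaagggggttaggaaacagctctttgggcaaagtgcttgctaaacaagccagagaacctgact
Htr7 intron, lower, chr19:36092561-36092760: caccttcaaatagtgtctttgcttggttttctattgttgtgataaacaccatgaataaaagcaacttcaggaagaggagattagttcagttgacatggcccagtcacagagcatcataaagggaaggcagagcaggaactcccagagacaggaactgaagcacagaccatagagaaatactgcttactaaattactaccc
1700034F02Rik intron, higher, chr11:29477876-29478075: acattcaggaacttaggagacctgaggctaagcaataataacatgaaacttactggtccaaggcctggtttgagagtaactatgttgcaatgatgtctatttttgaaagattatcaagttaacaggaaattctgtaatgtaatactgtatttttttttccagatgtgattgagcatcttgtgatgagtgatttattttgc
Rnf144a intron, higher, chr12:27083423-27083622: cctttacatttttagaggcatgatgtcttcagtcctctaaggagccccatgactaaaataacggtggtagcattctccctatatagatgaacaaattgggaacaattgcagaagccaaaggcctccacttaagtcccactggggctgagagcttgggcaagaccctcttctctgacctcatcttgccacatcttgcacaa
Hist1h cluster, nearest to Hist1h4k, higher, chr13:21835969-21836168: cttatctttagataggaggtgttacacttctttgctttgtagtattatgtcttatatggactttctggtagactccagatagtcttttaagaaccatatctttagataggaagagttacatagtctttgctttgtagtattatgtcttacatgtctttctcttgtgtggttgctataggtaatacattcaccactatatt

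Accessibility differed between (+)-JQ1 and IL-10 in both directions, and the larger differences were mostly regions that were more closed with (+)-JQ1. Of 194230 tested peaks, 1978 were differentially accessible regions (DARs) with higher counts under (+)-JQ1 (1.02% of the tested peaks) and 2855 had lower counts (1.47%), where DARs passed an FDR of 0.05 in edgeR's quasi-likelihood test with a log2 fold-change beyond 0.5. The median log2 fold-change of the higher DARs was 0.71 and that of the lower ones -0.84. A log2 fold-change beyond 1 was reached by 454 of the higher and 950 of the lower DARs. Among the 36666 promoter peaks, 503 were higher (1.37%) and 481 lower (1.31%), and among the 157564 distal peaks 1475 were higher (0.936%) and 2374 lower (1.51%). The balance at promoters depended on the scaling. Higher peaks made up 51.1% of promoter DARs with TMM factors, 55.7% with DESeq2's size factors, 36.5% with loess offsets, 22.7% with total counts and 12.7% when promoter and distal peaks were scaled apart, while distal DARs were mostly lower in each, with 38.3%, 41.1%, 41.6%, 21.4% and 45.2% higher. Total counts moved the median of all peaks from 0.00 to -0.07 on the log2 scale. Leaving out a library of (+)-JQ1 left 1536, 1105 and 1296 higher and 1811, 1842 and 1825 lower DARs for replicates 1, 2 and 3, and leaving out a library of IL-10 left 1032, 1105 and 1063 higher and 2020, 1882 and 1589 lower.

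**Figure D1:**
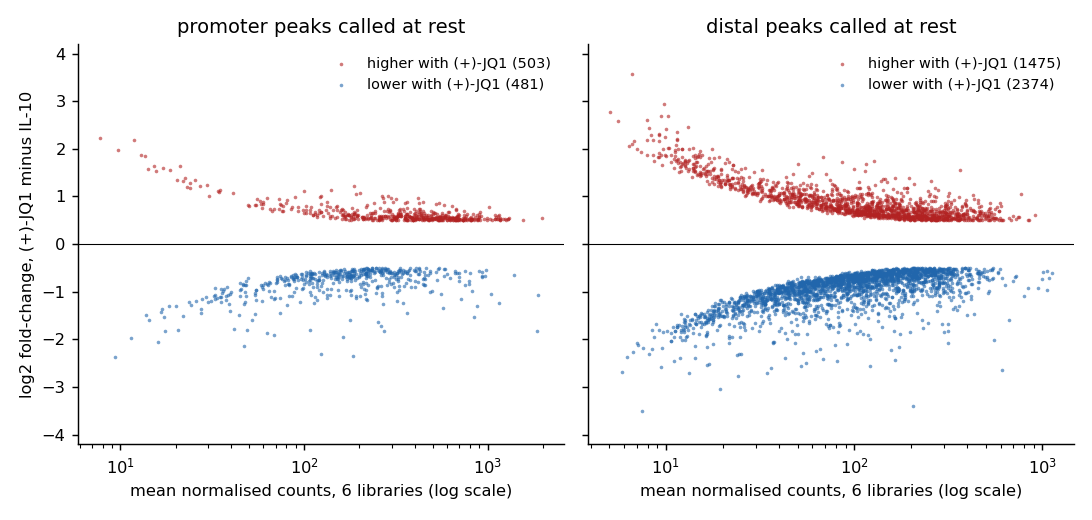
Log2 fold-change of (+)-JQ1 minus IL-10 in unstimulated BMDMs against the mean normalized counts over the 6 libraries (log axis), with 1 point for each DAR, for the 503 and 481 promoter peaks (left) and the 1475 and 2374 distal peaks (right) that were higher (red) and lower (blue). Of the higher peaks 454 and of the lower peaks 950 lie beyond 1 on the vertical axis in their direction.

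The summed counts of distal peaks relative to promoter peaks were lower in every (+)-JQ1 library than in any IL-10 library. The log2 ratio was 0.09, -0.06 and 0.07 in the (+)-JQ1 libraries and 0.21, 0.22 and 0.19 in the IL-10 libraries, for replicates 1, 2 and 3. The means differed by -0.17 (0.03 ± 0.08 against 0.21 ± 0.02, SD, n = 3 each), with p = 0.1 by an exact permutation test (two-sided), the lowest p that 3 libraries against 3 allow. Replicate 3 of both groups was sequenced on another lane than replicates 1 and 2, and the (+)-JQ1 values were the lower ones on each lane. The ratio of the median counts moved the other way, by 0.05, so the direction held for the sums only. The LPS-treated libraries of the same treatments differed in the sums by -0.21.

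A strong fall with (+)-JQ1 relative to IL-10 was in the stretch between Il4ra, the gene of the IL-4 receptor alpha chain, and Il21r, the gene of the IL-21 receptor. The peak at chr7:132726120-132728297, past the 3′ end of Il4ra, held 175, 163 and 168 normalized counts with (+)-JQ1 and 1022, 1043 and 1112 with IL-10. The 3 values of each group lay close together and the groups 6.27-fold apart, at a log2 fold-change of -2.65 ± 0.15 (FDR = 3.6e-28). Untreated cells held 165 ± 33.6. Here and below, ± after a log2 fold-change or log2 difference is the standard error from the fit of all 18 libraries. After counts it is the SD of 3 libraries. The next peak towards Il21r (chr7:132728854-132729465) held 22.4, 14.5 and 12.8 counts with (+)-JQ1 and 82.2, 84 and 116 with IL-10 (log2 fold-change -2.50 ± 0.28; FDR = 2.2e-11), again without overlap. In an intron of Htr7, a serotonin receptor gene, the peak at chr19:36092113-36093210 held 20.2, 44.7 and 41.2 counts with (+)-JQ1 and 173, 261 and 188 with IL-10 (-2.55 ± 0.22; FDR = 2.1e-16), where untreated cells held 40.8 ± 14.2.

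Peaks classed as promoter were also lower with (+)-JQ1 than with IL-10. Some of them are far from any coding start site of the annotation used here. A peak beyond the 3′ end of Ly86, 95736 bp from a start site, whose product MD-1 pairs with the receptor CD180 (chr13:37532241-37533660), held 61.6, 64.5 and 56 counts with (+)-JQ1 and 287, 289 and 350 with IL-10 (log2 fold-change -2.35 ± 0.18; FDR = 7e-19). Past the 3′ end of Clec4a2, a C-type lectin receptor gene (chr6:123098230-123101773), the values were 63.9, 22.4 and 36.3 against 185, 195 and 239 (-2.31 ± 0.21; FDR = 7.8e-16). Neither pair of groups overlapped, although the (+)-JQ1 values at Clec4a2 were widely spread. A peak between the 3′ end of Ctss and the start of Hormad1 (chr3:95360578-95363874) held 75.1, 67.1 and 57.9 against 262, 280 and 232 (-1.96 ± 0.17). The adjoining peak inside Ctss, the gene of the lysosomal protease cathepsin S (chr3:95342169-95360003), was lower by 1.60 ± 0.14 on the log2 scale. Ctns encodes the lysosomal cystine exporter, and Fyb encodes an adaptor of immune receptor signalling. Promoter-class peaks in these genes were lower with (+)-JQ1 than with IL-10 by 1.90 ± 0.25 and by 1.87 ± 0.24.

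Whether a lower peak was opened by IL-10 or closed by (+)-JQ1 was read from the untreated cells, whose libraries varied more (TMM factors of 1.24, 1.15 and 1.04, with 0.896 to 0.992 in the 6 libraries). Against untreated cells, 7.85% of peaks were higher and 3.15% lower with (+)-JQ1, and 5.16% were higher and 3.5% lower with IL-10, and these 2 comparisons share the untreated libraries with each other and the treated libraries with the direct comparison. At the peak past Il4ra the log2 difference from untreated cells was 0.02 ± 0.16 with (+)-JQ1 and 2.67 ± 0.15 with IL-10. At the Htr7 peak it was -0.19 ± 0.26 and 2.36 ± 0.22, and at the peak near Ly86 -0.17 ± 0.21 and 2.18 ± 0.18. The peak between Ctss and Hormad1 differed in both, by -1.28 ± 0.18 and 0.67 ± 0.15. The Clec4a2 peak differed by -1.80 ± 0.21 with (+)-JQ1 and by 0.52 ± 0.17 with IL-10, the peak in Ctss by -1.09 ± 0.14 and 0.52 ± 0.13, and the Fyb peak by -1.42 ± 0.25 and 0.44 ± 0.20 (FDR = 0.15). So the DARs of the direct comparison held loci that differed from untreated cells mainly with IL-10, mainly with (+)-JQ1, or with both.

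Genes that IL-10 and STAT3 are known to raise had lower peaks in both classes. The list held 12 genes, and of the 178 distal peaks within 25 kb of them, 30 were lower with (+)-JQ1 (16.9%, against 1.51% of all distal peaks) and none was higher, with a median log2 fold-change of -0.30 against -0.02 over all distal peaks. Of their 28 promoter peaks, 5 were lower (17.9%) and none higher, with a median of -0.19 against 0.07 over all promoter peaks. The distal peaks of the list had a median of 45.5 normalized counts, against 27.1 over all distal peaks. Its promoter peaks had a median of 266, against 85.8 over all promoter peaks. Under each of the other scalings 30 to 35 of the distal peaks were lower and none was higher. The lower peaks belonged to Socs3, Il4ra, Bcl3, Saa3, Sbno2, Stat3 and Nfil3, and no peak of Etv3, Il1rn, Hmox1, Ddit4 or Il1r2 was called.

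Socs3, the feedback inhibitor of JAK-STAT signalling, was lower at its start site and around it. Its main promoter peak (chr11:117830075-117830906) held 538, 530 and 455 normalized counts with (+)-JQ1 and 1119, 1281 and 1346 with IL-10, with no overlap (log2 fold-change -1.30 ± 0.14; FDR = 4.2e-12). It differed from untreated cells by 0.65 ± 0.14 with (+)-JQ1 and by 1.95 ± 0.14 with IL-10, so it was above the untreated level in both. With (+)-JQ1 some other start-site peaks were as far above that level, by 0.78 ± 0.14 at Stat3 and 0.70 ± 0.14 at Il10ra. The difference at Myc, 0.27 ± 0.14, did not pass. The peak at the 3′ end of the gene (chr11:117825774-117828493) held 143, 108 and 112 against 469, 498 and 564 (-2.07 ± 0.16; FDR = 3e-18), and here untreated cells, with 125 ± 4.25, lay within the (+)-JQ1 values. In all, 10 of 25 peaks of Socs3 were lower. Bcl3 encodes an atypical member of the IkB family that holds NF-kB p50 dimers on DNA. Its strongest promoter-class peak, over the 3′ part of the gene (chr7:20393597-20400556) held 153, 122 and 192 against 386, 410 and 342 (-1.27 ± 0.15; FDR = 6.1e-10), and the distal peak beyond the 3′ end (chr7:20388255-20392949) held 226, 201 and 198 against 635, 522 and 609 (-1.50 ± 0.14; FDR = 1.1e-14). Il4ra had 8 of 14 distal peaks lower, from -2.65 to -0.75 among those called. Stat3 itself was lower at 1 of 9 promoter-class peaks, a wide one over the adjoining 3′ ends of Stat3 and Stat5a (chr11:100740159-100751985; -0.72 ± 0.14; FDR = 0.00034). At the Stat3 start site proper (chr11:100799718-100800815) the values were 598, 725 and 649 against 567, 551 and 523, a log2 difference of 0.26 ± 0.13 that did not pass (FDR = 0.35).

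Sites with the palindromic STAT letters TTCCNGGAA were found in the middle 500 bases of 4 of the 35 called peaks of this list (11.4%), against 1.55% of all tested distal peaks and 1.76% of all tested promoter peaks. They are shown with 10 bases to each side, from the plus strand of mm9, the match in capitals. These peaks had been chosen by their calls, and a match is no evidence that STAT3 binds there.
Socs3 promoter, chr11:117830543-117830571: cgccccccgaTTCCTGGAActgcccggcc
Socs3, beyond the 3′ end, chr11:117822734-117822762: acagaatgagTTCCAGGAAagctggagat
Stat3, upstream, chr11:100808632-100808660: atactggtggTTCCAGGAAaatggttgtc
Nfil3, beyond the 3′ end, chr13:53058129-53058157: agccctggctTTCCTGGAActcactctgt
The log2 fold-changes of these 4 peaks were -1.30, -1.31, -0.99 and -0.65. Binding of STAT3 was not measured.

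**Figure D2:**
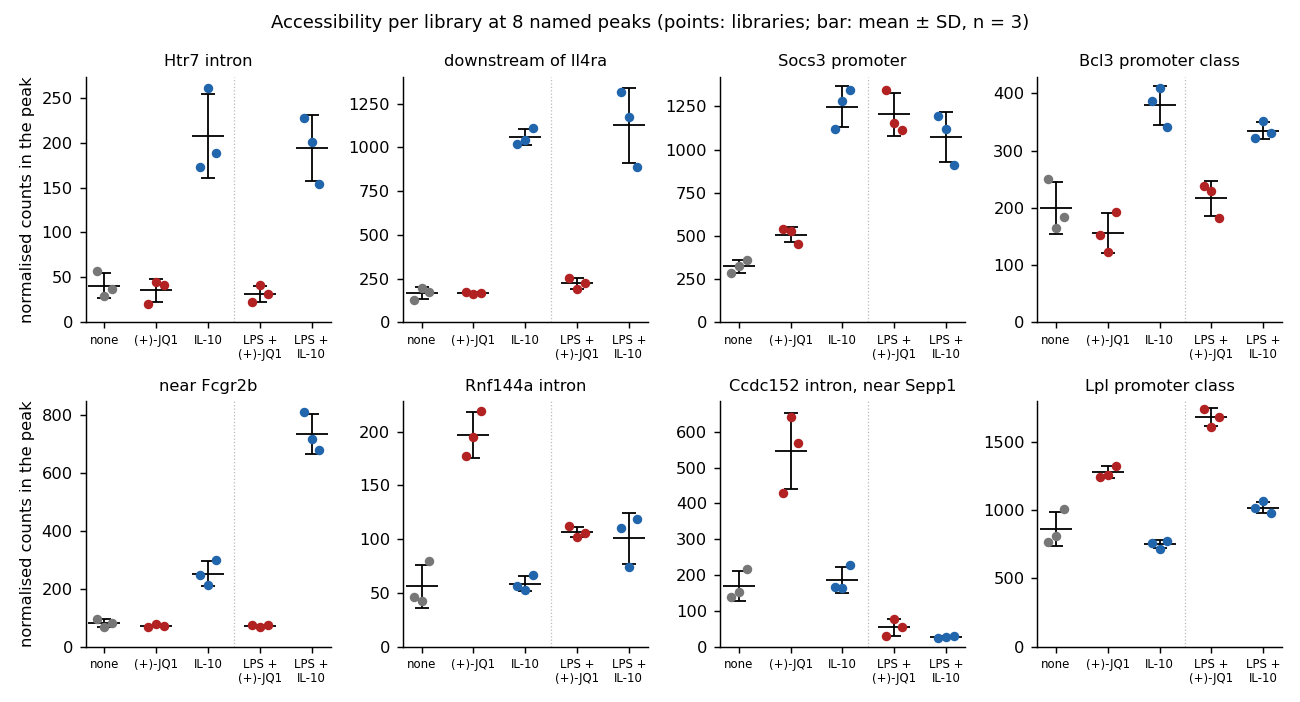
Normalized counts per library (points) with mean and SD (bars, n = 3) at 8 named peaks, for untreated cells (gray), (+)-JQ1 (red) and IL-10 (blue), without LPS left of the dotted line and with LPS right of it. Without LPS the red and blue points do not overlap in any of the 8 panels, and with LPS they overlap at the Socs3 promoter, in the Rnf144a intron and in the Ccdc152 intron.

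The receptor and its signalling chain showed fewer differences. Of the 267 distal peaks of 18 genes of the IL-10 receptor and JAK-STAT pathway, 13 were lower (4.87%, against 1.51% of all distal peaks) and none higher, and 8 of these 13 lie at Socs3 and 2 at Stat3, which both lists hold. Of their 50 promoter peaks 3 were lower (6%, against 1.31% of all promoter peaks) and none higher, namely 2 at Socs3 and the wide peak shared by Stat3 and Stat5a. Il10ra, the IL-10-binding chain, had a promoter peak (chr9:45076184-45077234) with 505, 571 and 522 counts against 387, 392 and 396 (log2 difference 0.44 ± 0.14), at an FDR of 0.05 and under the size required of a DAR. The promoter peak of Il10rb (chr16:91405864-91407251) held 618, 821 and 702 against 670, 585 and 691, which overlapped (0.14 ± 0.14; FDR = 0.72). Its other promoter-class peak, inside Ifnar2, differed by -0.41 ± 0.15 and did not pass (FDR = 0.14). Among the 13 distal peaks within 25 kb of Il10rb, 2 were lower and none higher, with a median of -0.35.

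In the direct comparison the genes of the drug's own targets did not pass at their start sites. None of the 31 promoter peaks of the list of BET proteins and P-TEFb was called, with a median of 0.15 against 0.07 over all promoter peaks. The main promoter peaks of Brd2 and Brd3 differed by 0.14 ± 0.13 and 0.18 ± 0.14, and that of Hexim1, the inhibitor of P-TEFb whose RNA is often used to follow BET inhibition, by 0.10 ± 0.14. Against untreated cells, whose libraries varied more, these peaks of Brd2, Brd3 and Hexim1 were higher by 0.719, 0.715 and 0.538 with (+)-JQ1. With IL-10 they were higher by 0.579, 0.532 and 0.434, and all of these differences had an FDR of 0.024 or lower. Such rises were not particular to this list. The start-site peaks of Stat3 and Il10rb were higher than untreated by 0.776 and 0.563 with (+)-JQ1 and by 0.512 and 0.426 with IL-10. That of Myc differed by 0.27 and -0.084, which did not pass. The mean log2 ratio of distal to promoter counts was 0.41 in untreated cells, 0.03 with (+)-JQ1 and 0.21 with IL-10. Of the 156 distal peaks of the list 4 were higher (2.56%, against 0.936% of all distal peaks) and 2 lower (1.28%, against 1.51%). Hexim1 had 2 of 11 distal peaks higher and none lower, with a median of 0.38 over the 11. Brd2 had 2 of 8 higher and none lower. One of the higher ones lies 7122 bp from Brd2 (chr17:34243128-34243982) and also within 25 kb of MHC class II genes, with 152, 149 and 148 counts against 55.4, 66.7 and 75.9 (1.18 ± 0.18; FDR = 1.5e-06). At the promoter of Myc, a gene known to respond to BET inhibition in many cells, the values of 500, 476 and 434 lay above 360, 369 and 373, but the log2 difference of 0.35 ± 0.14 did not pass (FDR = 0.17).

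Genes of Fc gamma receptors, which bind antibody-coated particles, had a number of lower peaks, most of them at 1 gene. Of 70 distal peaks of 5 genes, 16 were lower with (+)-JQ1 (22.9%, against 1.51% of all distal peaks) and none higher, with a median of -0.24 against -0.02 over all distal peaks. Of 11 promoter peaks 2 were lower (18.2%, against 1.31% of all promoter peaks), both at Fcgr2b. Fcgr2b, the inhibitory receptor of the family, held 10 of the 16 distal peaks, while Fcgr3 held 3, Fcgr1 2 and Fcer1g 1, and no peak of Fcgr4 was called. The peak beyond the 3′ end of Fcgr2b (chr1:172884597-172887690) held 67.2, 76.3 and 70.7 counts with (+)-JQ1 and 246, 211 and 298 with IL-10 (-1.82 ± 0.17; FDR = 6.4e-15), with 82.1 ± 14.9 in untreated cells. The promoter-class peak of Fcgr2b (chr1:172892291-172896275) held 149, 145 and 178 against 259, 285 and 285 (-0.81 ± 0.15; FDR = 8.8e-05). The count of lower distal peaks ranged from 15 to 17 over the other scalings.

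Regions that were higher with (+)-JQ1 were led by introns of genes with varied roles. In 1700034F02Rik, an uncharacterized gene, the peak at chr11:29477556-29478396 held 120, 97.4 and 104 counts with (+)-JQ1 and 29.6, 32.9 and 28.2 with IL-10 (log2 fold-change 1.82 ± 0.23; FDR = 2.3e-09). In Rnf144a, a ubiquitin ligase gene, the peak at chr12:27083111-27083936 held 177, 195 and 219 against 56.3, 53 and 66.2 (1.75 ± 0.19; FDR = 1.3e-11), and its difference from untreated cells was 1.80 ± 0.20 with (+)-JQ1 and 0.05 ± 0.21 with IL-10. Neither peak overlapped between groups. Inside the Hist1h cluster of replication-dependent histone genes, the peak at chr13:21834811-21837327 held 168, 89.5 and 141 against 23.1, 63 and 34.4 (1.73 ± 0.23), with a wider spread in both groups. This peak is intergenic, 6305 bp from the nearest coding start site. The histone genes are near-identical copies, and whether the region of the peak is also repeated in the cluster was not tested. Of the promoter-class peaks, the one nearest to Fbxw2, an F-box protein gene (chr2:34682577-34684137), held 173, 209 and 195 against 89.6, 90.4 and 81.2 (1.14 ± 0.17; FDR = 1.1e-06). A peak in Aplp2 (chr9:30963934-30966550) held 242, 283 and 296 against 145, 124 and 122 (1.07 ± 0.15). The other 3 promoter-class peaks with the largest rise lay 129608 bp or more from the nearest coding start site, those of 4921513I03Rik, Cdyl and Trib1, at 1.22, 1.11 and 1.06.

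Sepp1, which encodes the secreted selenium carrier selenoprotein P, had 8 of its 21 peaks higher with (+)-JQ1. The list of alternative activation and scavenger receptor genes had 10 distal peaks higher (5.95%, against 0.936% of all distal peaks) and 9 lower (5.36%), and 7 of the 10 were at Sepp1, while 8 of the 9 were at Mrc1, the mannose receptor gene. The higher and lower peaks thus lay mostly at different genes of one list, whose distal median was 0.00, and with DESeq2 10 were higher and 4 lower. The peak in an intron of the neighbouring Ccdc152 (chr15:3232292-3233828) held 430, 641 and 568 counts with (+)-JQ1 and 166, 163 and 229 with IL-10 (1.55 ± 0.16; FDR = 1.2e-12), and the one beside it (chr15:3231712-3232222) held 133, 217 and 182 against 60, 42.9 and 61.8 (1.69 ± 0.22; FDR = 1.2e-08). Both were near the untreated level with IL-10, at 0.13 ± 0.17 and 0.15 ± 0.24. The promoter-class peak of Sepp1 (chr15:3222025-3226469) held 299, 320 and 309 against 163, 168 and 178 (0.86 ± 0.15; FDR = 3.8e-05), without overlap.

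Lipid-handling genes had more higher than lower peaks. Of the 278 distal peaks of the 20 genes of the LXR, PPAR and lipid list, 12 were higher (4.32%, against 0.936% of all distal peaks) and 4 lower (1.44%, near the 1.51% of all distal peaks), with a median of 0.03 against -0.02. Of the 42 promoter peaks 4 were higher (9.52%, against 1.37% of all promoter peaks) and 1 lower (2.38%, against 1.31%). The 4 promoter peaks belonged to Lpl, Pparg, Cd36 and Gpnmb, and the distal ones to Cd36, Mylip, Lpl, Pparg, Abca1 and Gpnmb. With total counts as the scaling 10 distal peaks were higher and 6 lower, and the distal median turned to -0.05, with that of all distal peaks lower as well. The promoter-class peak of Lpl, the gene of lipoprotein lipase (chr8:71404314-71417571), held 1244, 1259 and 1324 counts against 757, 716 and 771 (0.77 ± 0.13; FDR = 2.3e-05). The lower peaks included 2 near Nr1h3, which encodes LXR alpha, of which the one in Ddb2 (chr2:91056201-91065685) held 165, 145 and 223 against 359, 283 and 378 (-0.93 ± 0.15).

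Few peaks of inflammatory genes were called without LPS. None of the 17 promoter peaks of 15 cytokine genes was called, and of their 177 distal peaks 2 were higher (1.13%) and 3 lower (1.69%), near the shares over all distal peaks. The lowest p among them was 14849 bp from Il12b (chr11:44226839-44229989), where the counts of 189, 161 and 226 lay below 381, 348 and 354 (-0.90 ± 0.15; FDR = 5.3e-06). At the Il1b promoter (chr2:129194399-129197486) 121, 129 and 120 lay below 177, 162 and 161, but the log2 difference of -0.44 ± 0.16 did not pass (FDR = 0.13). Chemokine genes had 1 promoter peak higher and 1 lower of 22 (4.55% each, against 1.37% and 1.31% of all promoter peaks). Of their 177 distal peaks 3 were higher (1.69%, against 0.936% of all distal peaks) and 6 lower (3.39%, against 1.51%). At Ccl3, which encodes an inflammatory chemokine (chr11:83462254-83463022), 443, 422 and 362 lay above 254, 239 and 257 (0.71 ± 0.15; FDR = 0.00076). Near Cxcl16 (chr11:70261752-70264221) 105, 80.3 and 70.7 lay below 206, 210 and 236 (-1.35 ± 0.17; FDR = 5.3e-09). The promoter of Cd14, the co-receptor of LPS, held 659, 685 and 668 with (+)-JQ1 and 397, 373 and 359 with IL-10. These values did not overlap either (0.83 ± 0.14; FDR = 2.1e-05). Of 38 promoter peaks in the LPS receptor list, 2 were higher (5.26%, against 1.37% of all promoter peaks), that of Cd14 among them, and none lower. The median of the 38 was 0.25, against 0.07 over all promoter peaks. With promoter and distal peaks scaled apart, 1 of the 38 was higher.

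In the other lists the shares of called peaks are to be read against 0.936% higher and 1.51% lower over all distal peaks, and 1.37% and 1.31% over all promoter peaks. Type I interferon-stimulated genes had 6 of 223 distal peaks higher (2.69%) and 2 lower (0.897%). Of their 39 promoter peaks 1 was higher (2.56%), that of Usp18 at 0.52, and 2 were lower (5.13%), both at Oas2, an antiviral RNA sensor gene, the one with the lowest p (chr5:121199247-121200440) with 115, 200 and 131 against 256, 286 and 321 (-0.97 ± 0.15). The NF-kB list had 9 of 222 distal peaks lower (4.05%) and 2 higher (0.901%), where Bcl3 accounted for 4. Macrophage lineage factors had 9 of 322 lower (2.8%) and 5 higher (1.55%), with the lowest p near Cebpb (chr2:167519776-167522342), at 204, 196 and 189 against 457, 512 and 500 (-1.32 ± 0.14). Dual-specificity phosphatases and mRNA decay factors had 7 of 233 lower (3%) and none higher. Histone genes had 5 higher (5.26%) and 5 lower (5.26%) of 95 distal peaks. Of their 34 promoter peaks 2 were lower (5.88%), and the one with the lowest p, at Hist1h1a (chr13:23855331-23856155), held 236, 237 and 237 against 406, 387 and 394 (-0.74 ± 0.14; FDR = 0.00012). MHC class II genes had 2 of 70 distal peaks higher (2.86%) and 1 lower (1.43%). AP-1 and MAF genes had 3 of 227 higher (1.32%) and 1 lower (0.441%). Lysosome genes had 1 of 240 higher (0.417%) and 6 lower (2.5%), and cell cycle genes 2 of 235 higher (0.851%) and none lower. Inflammatory enzyme genes had 1 of 95 lower (1.05%) and ribosomal protein genes 3 of 244 (1.23%), with none higher. Of promoter peaks, 1 of 22 was higher for AP-1 and MAF (4.55%) and 1 of 16 for inflammatory enzymes (6.25%). Lysosome genes had 1 of 48 higher and 1 lower (2.08% each). MHC class II, cell cycle and ribosomal protein genes had no promoter peak called. LPS and Toll-like receptor genes had 4 of 260 distal peaks higher and 4 lower (1.54% each). Over the 20 lists the median normalized count of promoter peaks ran from 51.1 for inflammatory enzymes to 734 for phosphatases and mRNA decay factors. Over all tested promoter peaks it was 85.8. All 20 lists were chosen with earlier results of these data known.

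**Figure D3:**
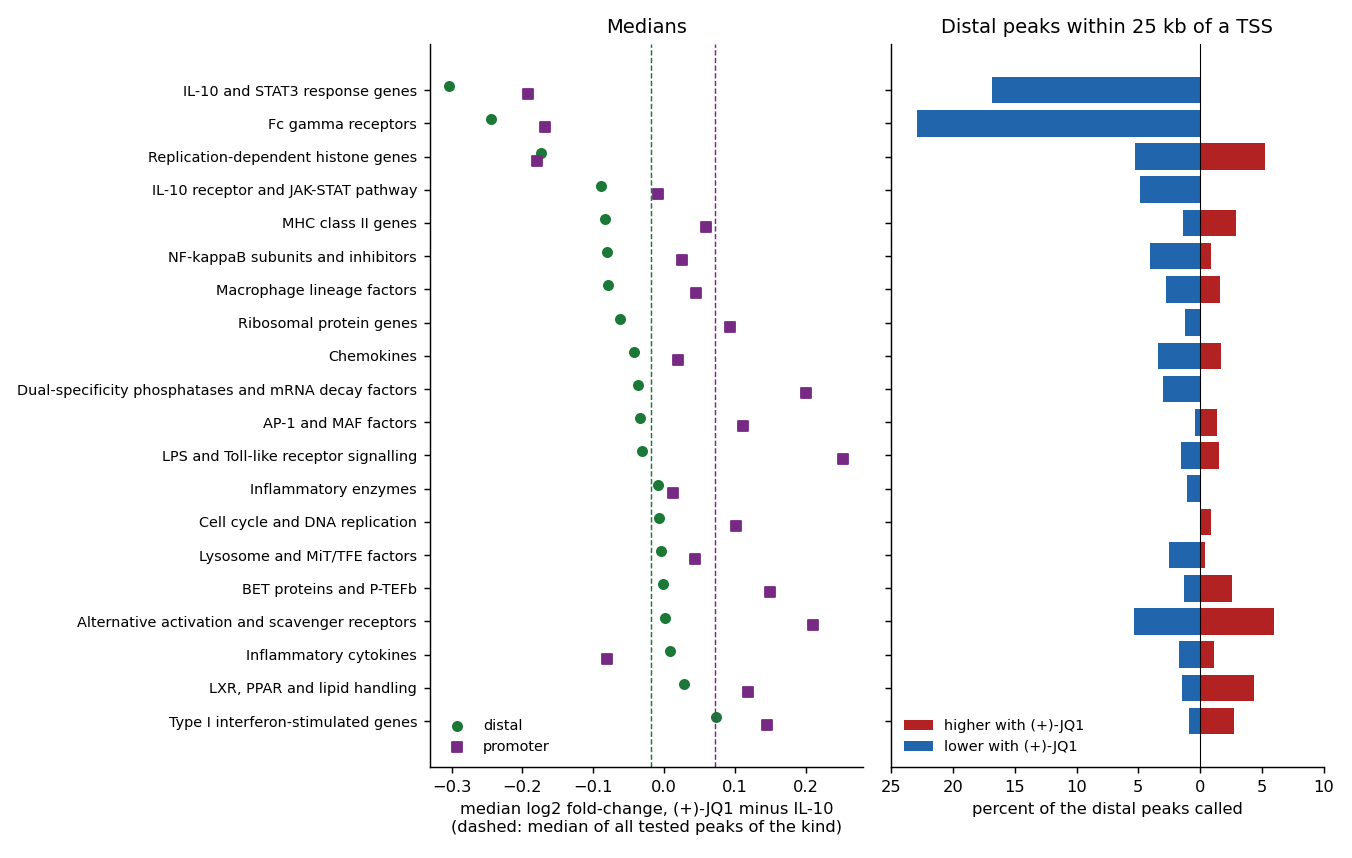
Median log2 fold-change of (+)-JQ1 minus IL-10 over the promoter (squares) and distal (circles) peaks of 20 gene lists, with the medians of all tested peaks as dashed lines (left), and the percentage of each list's distal peaks that were higher (red) or lower (blue, drawn to the left) (right). The IL-10 and STAT3 response genes and the Fc gamma receptor genes have the lowest distal medians, -0.30 and -0.24, and the highest shares of lower peaks, 16.9% and 22.9%.

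DARs gathered at some loci, which were picked after their values were seen. Counted over promoter peaks and peaks within 25 kb of a start site, loci with many lower peaks included Ggta1, a glycosyltransferase gene (13 of 29), Fcgr2b (12 of 24), Fyb (12 of 28), Ctsc, the gene of cathepsin C (10 of 21, with 1 higher), Dab2, an endocytic adaptor gene (10 of 38), and Socs3 (10 of 25). Mrc1 had 8 of 34, Il4ra 8 of 15, Csf3r, the receptor gene of G-CSF, 8 of 25, Ms4a6d 7 of 14 and Lgmn, the gene of legumain, 7 of 29. Among higher loci, Asph, a hydroxylase gene, had 14 of 48 peaks, Sepp1 8 of 21, Prdx1, an antioxidant enzyme gene, 7 of 15, and Cd36, Gpr65, Lyz2 and Rgs1 4 of 23, 18, 15 and 9. Apart from Ctsc, none of these loci had a DAR in the other direction. Peaks of one locus are not independent of each other.

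The same contrast was then read in the libraries of cells that received LPS after (+)-JQ1 or IL-10. Their counts do not enter the contrast without LPS, but they are in the same fit and share its filter and its estimate of the spread between libraries, and a fit of only the 6 libraries without LPS called 2885 higher and 4174 lower peaks. In the libraries with LPS 3.43% of all tested peaks were higher with (+)-JQ1 and 4.68% lower. Of the 1978 peaks higher without LPS, 1702 (86%) had the same sign with LPS and 710 (35.9%) were higher DARs, while 24 (1.21%) were lower ones. Of the 2855 lower peaks, 2508 (87.8%) kept the sign and 1240 (43.4%) were lower DARs, while 31 (1.09%) were higher ones. Over all tested peaks the sign was shared by 60%. The median of the higher set was 0.71 without LPS and 0.44 with it, and that of the lower set -0.84 and -0.51. The peaks were chosen on the libraries without LPS, so nothing is read from the smaller median. The peak past Il4ra differed by -2.35 with LPS, the Htr7 peak by -2.58 and the peak near Ly86 by -2.13, and the interaction term passed at none of these 3 (FDR = 0.66, 0.99 and 0.86).

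Some loci did differ by that term, the log2 difference with LPS minus that without, which was positive at 823 peaks (0.424%) and negative at 1376 (0.708%). These counts fell to 548 and 870 without (+)-JQ1 replicate 3, to 485 and 916 without IL-10 replicate 3 and to 580 and 899 without IL-10 replicate 1. At the Socs3 promoter the log2 difference between (+)-JQ1 and IL-10 was -1.30 without LPS and 0.17 ± 0.13 with it (interaction FDR = 5.3e-08), and the mean was 324 in untreated cells and 1289 with LPS alone. The peak in Rnf144a differed by 1.75 without and 0.06 with LPS (FDR = 1.3e-05). It was chosen for its large difference without LPS, which favours a smaller one with LPS. At the distal Fcgr2b peak the difference grew from -1.82 to -3.34 (FDR = 8.9e-06). LPS itself opened 11.7% and closed 10.2% of all tested peaks, and of the peaks lower with (+)-JQ1 at rest it opened 28% and closed 15.3%, while of the higher ones it opened 17.7% and closed 18%. The DARs were more strongly covered than the average peak, with a median of 104 normalized counts for lower and 153 for higher ones.

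**Figure D4:**
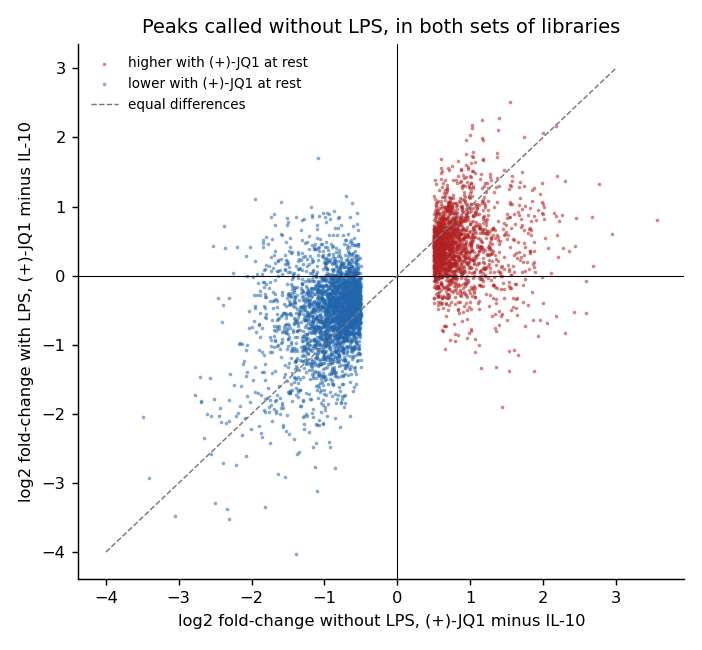
Log2 fold-change of (+)-JQ1 minus IL-10 with LPS against the same difference without LPS, for the 1978 peaks higher (red) and 2855 lower (blue) without LPS, with equal differences as a dashed line. Of the red points 86% lie above 0 on the vertical axis and of the blue points 87.8% below it, and many of both lie nearer to 0 than the dashed line.

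The sequences under the 2 sets of distal DARs differed in their motif content. In the middle 500 bases, on either strand, the AP-1 motif TGANTCA occurred in 27.8% of the higher distal peaks (95% Wilson interval 25.6 to 30.1), in 18.9% of the lower ones (17.3 to 20.5) and in 19.3% of all tested distal peaks. The C/EBP motif TTGCNNAA was found in 28.4% of the higher peaks (26.2 to 30.8), 21.2% of the lower (19.6 to 22.9) and 20.5% of all. The STAT motif TTCNNNGAA went the other way, with 13.4% of the higher (11.8 to 15.3), 19.4% of the lower (17.9 to 21.1) and 14.7% of all, and its narrower form TTCCNGGAA, whose matches are all matches of the first, occurred in 1.36%, 3.2% and 1.55%. The MAF motif TGACTCAGC, which overlaps the AP-1 motif, was found in 2.92% of the higher and 1.14% of the lower peaks against 1.5% of all. The motif of the insulator protein CTCF occurred in 2.24% of the higher peaks (1.6 to 3.13), 6.61% of the lower and 7.8% of all. The PU.1 motif GAGGAAGT occurred in 7.25%, 8.8% and 6.98%, and the IRF motif GAAANNGAA in 17.8%, 18.3% and 16.8%. The intervals cover counting error only and take peaks as independent, and a match does not show that a factor binds.

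**Figure D5:**
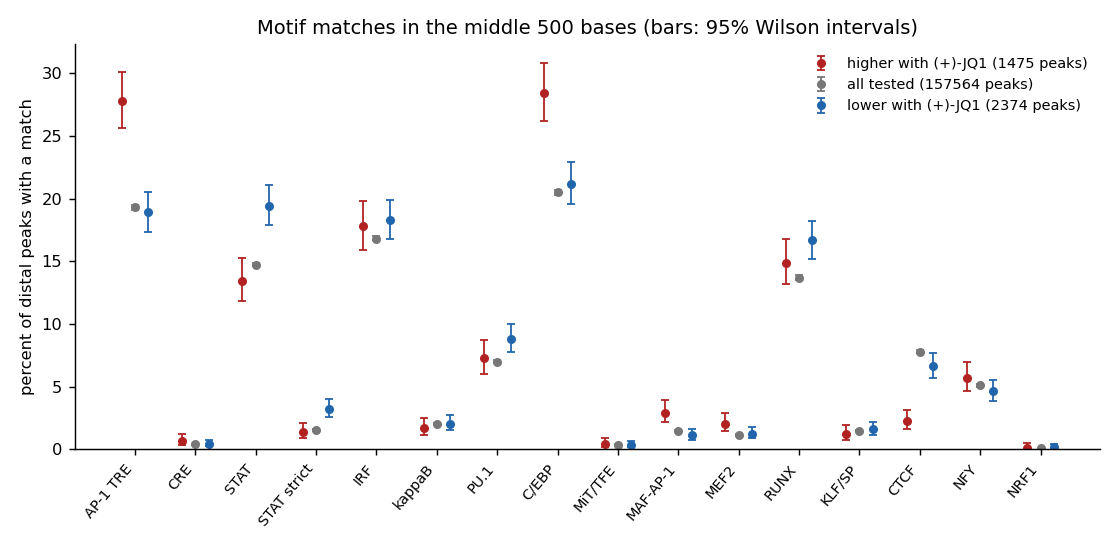
Percentage of distal peaks with at least 1 match to each of 16 motifs in the middle 500 bases, for peaks higher with (+)-JQ1 (red, 1475 peaks), lower (blue, 2374) and all tested distal peaks (gray, 157564), with 95% Wilson intervals. The AP-1 and C/EBP points stand higher for the red set, at 27.8% and 28.4%, and the STAT point for the blue set, at 19.4%.

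The 2 sets of promoter DARs also differed in kind. Higher promoter peaks had a median of 16 CG dinucleotides in their middle 500 bases and lay a median of 295 bp from the nearest coding start site, while lower ones had 6 and lay 1777 bp away, against 8 and 911 bp over all tested promoter peaks. The KLF/SP motif GGGGCGGGG was found in 13.1% of the higher and 3.12% of the lower promoter peaks, against 7.91% of all, and the STAT motif TTCNNNGAA in 9.94%, 17.3% and 12.3%. The number of higher promoter peaks was the count most affected by the scaling, as given above. Distal DARs of both directions were wider than the average distal peak, with medians of 1356 bp for higher and 1469 bp for lower against 906 bp, and lay at medians of 21923 and 16933 bp from a coding start site against 15768 bp.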

How the data were processed

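ATAC-seq libraries of Il10-/- BMDMs were compared from the counts per peak that the authors deposited, whole-number read counts in 194284 union peaks, in 1 table of promoter and 1 of distal peaks. Per the methods of the authors, reads went through PEPATAC, uniquely mapped reads were aligned to mm9 with bowtie2, peaks were called in each sample with MACS2, and ChIPseeker classed as promoter the peaks from 1000 bp before to 100 bp after a start site. The counting tool and its settings are not given in the sources used here, so strand and duplicate handling are unknown. In the GENCODE annotation of the same build used here, 78.1% of promoter-class peaks overlapped such a window. There were 6 columns that match no sample, and they were not used.

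Groups and replicate numbers came from the labels. Counts were tested in edgeR 4.0.16 (R 4.3.3) by the quasi-likelihood F test in 1 fit of 18 libraries and 6 groups, with TMM factors, filterByExpr (194230 peaks kept) and Benjamini-Hochberg adjustment over all tested peaks. FDR below is that adjusted p. The script was tested on simulated data for the 6 libraries with (+)-JQ1 or IL-10 and no LPS, fitted alone. There 132 of 200 peaks changed by 1.5 on the log2 scale were called, with 7 false calls, over 184618 peaks. The fit of 18 libraries was not simulated, so these counts do not describe it. Total counts per library bound the precision, and intervals cover counting error only. Replicates 1 and 2 of both groups were sequenced on lane 5 and replicate 3 on lane 6.

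Peaks were named by a rule. It took the 5 promoter and 5 distal peaks with the largest change each way. These had to have an FDR under 0.05, a difference of 1 sign between libraries of each replicate number and a mean of 50 normalized counts or more. Without these conditions it also took the promoter and distal peak of lowest p in each of 20 gene lists, called or not. All promoter peaks of Il10, Il10ra, Il10rb, Stat3, Socs3, Brd2, Brd3, Hexim1 and Myc, among others, were likewise taken without them. Some named items are not reported here. The members and lists were chosen with earlier results of these data known. Genes were matched through GENCODE, with older symbols (Sfpi1 for Spi1, Sepp1 for Selenop) through RefSeq synonyms. A distal peak was assigned to each gene with a start site within 25 kb. Alternatives were DESeq2 1.42.0, other scalings, filters and thresholds, fewer libraries, a replicate block and leaving out each library.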

Additional observations from a re-analysis of the deposited data

Results flagged for a closer look

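At 12 named peaks the difference between (+)-JQ1 and IL-10 was not the same with LPS as without it, by the interaction term in edgeR. Many named peaks were chosen on the contrast without LPS, whose values this term subtracts. That choice favours a smaller difference with LPS. The values are the log2 difference with LPS minus that without. It was positive at the Socs3 promoter (1.465), at the Socs3 peak over the 3′ end (0.994), at the peak near Cxcl16, nearest to Med11 (1.448), and at the distal peak near Zfp36l1, the gene of an mRNA decay factor (1.131). At the first 3 of these the difference without LPS was negative (-1.30, -2.07 and -1.35) and with LPS it was 0.17, -1.08 and 0.10.

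It was negative at 8 peaks. At the Fbxw2 peak (-1.078), the 1700034F02Rik intron (-1.472), the Rnf144a intron (-1.686) and the Sepp1 promoter-class peak (-0.814), a positive difference without LPS was 0.06, 0.35, 0.06 and 0.05 with it. At the Fcgr2b promoter-class peak (-0.914), the distal Fcgr2b peak (-1.525), the distal Oas2 peak (-1.206) and a promoter-class peak near Il10rb and inside Ifnar2 (-0.842), a negative difference was larger with LPS, at -1.72, -3.34, -2.59 and -1.25.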

How the results depend on the processing

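Total counts as the scaling gave 1238 higher peaks (221 promoter) and 4478 lower ones (751 promoter and 3727 distal). Loess offsets gave 328 higher promoter peaks, and scaling promoter and distal peaks separately gave 155 higher and 1068 lower promoter peaks. A fit of only the 6 libraries gave 2283 higher distal peaks. At an FDR of 0.01 there were 872 higher (217 promoter, 655 distal) and 1468 lower peaks (274 and 1194), and 314 positive and 570 negative interactions. A test against a log2 fold-change of 0.5 (glmTreat) left 66 higher (7 promoter, 59 distal) and 318 lower peaks (52 and 266), and 104 and 238 interactions. The share with the same sign with LPS was 85.7% with loess offsets, 88.3% with DESeq2 and 90.9% at an FDR of 0.01. The ratio of distal to promoter counts reversed to 0.046 when medians replaced sums, and the cause was not tested.

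Leaving out 1 library at a time gave 1032 to 1536 higher peaks (promoter 223 to 557, distal 778 to 979), 1589 to 2020 lower peaks (promoter 288 to 345, distal 1301 to 1675), 485 to 630 positive and 870 to 1031 negative interactions, a same-sign share of 87.9% to 89.4% and a ratio difference of -0.203 to -0.127. An FDR under 0.05 was lost without 1 or more libraries at named peaks that included those of Hexim2, Arg2, Cdk6, Rps9, Il10ra, Jdp2, Mitf and Sfpi1 and at the second Socs3 promoter peak.

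The samples are described as matched, but no number is tied to a mouse. The correlations of deviations from the group means were 0.01 to 0.034 for same-numbered libraries and -0.028 to 0.014 for other pairs, and (+)-JQ1 replicate 2 correlated best with IL-10 replicate 3. The replicate block gave 1985 higher and 2931 lower peaks. With it the promoter peaks of Hexim2 (0.448), Rps9 (-0.474) and Il10ra (0.442) lost an FDR under 0.05, and it changed no other call of a named peak. DESeq2 lost the Zfp36l1 peak (-0.677), and DESeq2's size factors in edgeR lost Rps9 (-0.464) and Il10ra (0.454). Total counts brought 4 named peaks past an FDR of 0.05, at Il1b (-0.51), Dusp3 (0.326), Il10rb (-0.477) and a Stat3 intron (-0.751), and DESeq2 brought Dusp3 (0.413). With 3 libraries a group and most distal peaks at low counts, small differences at weak peaks were not detectable.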
